A study of Drosophila melanogaster with 6 samples.

Results

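The cytoplasmic ribosomal proteins were taken as the genes whose symbol starts with RpL or RpS in the deposited table, which left out the mitochondrial mRpL and mRpS genes. The rule found 92 of 17737 genes, 54 named for the large subunit and 38 for the small subunit. RNA was sequenced from Drosophila melanogaster brains dissected at the third larval instar, in 3 control and 3 DNMT3L libraries. Control larvae carried elavC155-Gal4, an insertion at the neuronal gene elav that makes the yeast activator Gal4 in neurons. DNMT3L larvae came from crossing this driver to a w stock with a UAS-DNMT3L transgene over the balancer chromosome Cyo and with TM2 over TM6B. Both groups therefore carry the driver, and no label states that larvae which inherited the transgene rather than Cyo were picked. DNMT3L is a mammalian cofactor of DNA methyltransferases, and its own transcript was not analysed here. The labels do not say whether replicates were separate animals or pools, so every p-value here reflects only how far these samples spread, which may be technical variation.

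Each ribosome is built from 1 copy of nearly every ribosomal protein, so cells make these proteins in matched amounts, and their mRNAs are among the most abundant in growing tissue. In Drosophila, losing 1 gene copy of many of them causes the Minute phenotype of slow growth and thin bristles. Several fly ribosomal proteins are encoded by a pair of genes, of which 1 copy is often used mainly in the germline. Some genes with a ribosomal symbol ending in -like encode, by their yeast counterparts, factors of ribosome assembly rather than parts of the ribosome.

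Of the 92 genes, 86 had enough reads to be tested. The other 6 were copies of another member: RpL10Aa and RpS28-like had no read in any library, RpL37b had 3 reads over all libraries, RpS28a 5, RpL7-like 10 and RpS10a 26. Of the 92, 72 carried a cellular component term for a cytosolic ribosomal subunit in the deposited annotation. The members lay on X (14), 2L (19), 2R (21), 3L (14), 3R (23) and 4 (1). X held 15.2% of them, against 16.7% of all genes tested. Their proteins ranged from 25 residues for RpL41 to 416 for RpL3 in the Ensembl annotation of the BDGP6 build, with a median of 156.0 residues. Their exonic size, the summed length of all annotated exons, had a median of 921.5 bases over the 86 tested, against 2170 over all 9495 genes tested. In addition, 72 of the 269 annotated snoRNA genes lay inside 27 of the members, up to 14 of them within RpS5a.

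Ribosomal protein genes took a large part of every library. Their share of all gene counts was 31.7%, 20.5% and 22.5% in control libraries 1 to 3. It was 14.8%, 20.1% and 18.9% in DNMT3L libraries 1 to 3. Control 1 was far above the other 5 libraries and DNMT3L 1 far below them, while control 2 and DNMT3L 2 were almost equal. The groups did not overlap, with a mean of 24.9% ± 5.99 (SD) in controls and 17.9% ± 2.77 in DNMT3L. The exact two-sided permutation test gave p = 0.1, the smallest it can give with 3 against 3. Counting error was small beside this spread, since the Wilson 95% interval for DNMT3L 1 ran from 14.80% to 14.83%. This interval covers counting error only. Among the 100 genes with the most reads, 61 were members in DNMT3L 1 and 75 in control 1. The share is relative to all gene counts, so less of these mRNAs and more of other RNAs cannot be told apart. Nor can fewer cells rich in ribosomal protein mRNA and less of it per cell, in these bulk samples. Control 1 and DNMT3L 1 also had the most extreme correlations of level with gene length, at −0.69 and 0.66, as described below. The part of gene length in this share was not tested.

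The order of the members by level was similar in both groups. Leaving out the less abundant copy of each paralog pair, 78 members had control FPKM values (counts divided by exonic size and by the library total) with a median of 3334 and quartiles of 2653 and 4040. The highest was RpL41, whose protein is the shortest of the ribosome, at 14643, 7137 and 9502 FPKM in controls and 6180, 7912 and 7636 FPKM in DNMT3L. The lowest was RpL5, which carries the 5S RNA into the ribosome, at 1197, 898 and 933 FPKM in controls and 675, 798 and 827 FPKM in DNMT3L. RpL5 has an exonic size of 3835 bases for a protein of 299 residues, so its FPKM is divided by the largest size of any member tested. Its mean CPM in controls, scaled reads with no division by length, was 4166. The range from RpL5 to RpL41 was 10.3-fold in control means. Mean FPKM in DNMT3L followed that in controls with a Spearman correlation of 0.964 across the 78 genes, which share libraries and exonic sizes and are not independent replicates.

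**Figure D1:**
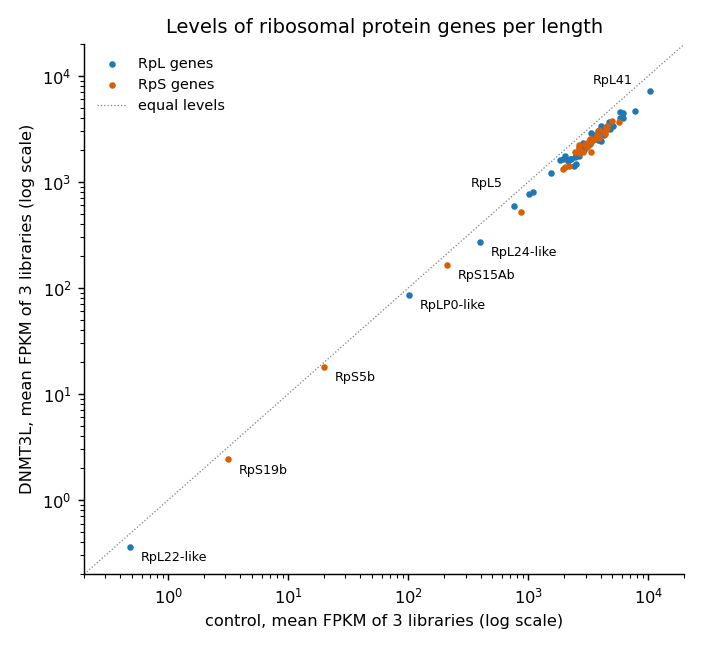
Mean FPKM over 3 libraries in control (x axis) and DNMT3L (y axis) brains for the 86 ribosomal protein genes tested, both on log scales, with the line of equal levels. All points lie under the line, from RpL22-like at the bottom to RpL41 at the top, and the other members named in the plot with low values are less abundant copies of paralog pairs.

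The design compares larvae with the neuronal driver to larvae from its cross to the UAS-DNMT3L stock. Effects of the transgene cannot be told apart from other differences of that stock, its balancers included. Nor can they be told apart from effects of the cross itself, such as a change in driver dose. Every one of the 86 genes had a negative log2 fold change, that is, a lower fitted level in DNMT3L, where 52.3% of all genes tested did. The values ran from −1.01 for RpS14a to −0.34 for RpS5b, with a median of −0.66 (1.58-fold lower) against −0.03 over all genes tested. After adjustment over all genes, edgeR's quasi-likelihood test called 0 of the 86 members (adjusted p between 0.323 and 0.479) and 0.0% of all genes tested. At an unadjusted edgeR p under 0.05, 46 of 86 members were lower and 0 higher, against 8.79% and 6.23% of all genes tested. DESeq2 called 0 members lower or higher, where it called 1.51% of all genes with an adjusted p lower and 0.847% higher, and the lowest DESeq2 adjusted p of a member was 0.0514. On log2(FPKM + 1), limma had 10 members lower at an unadjusted p under 0.05 (4.91% of all genes), and the groups did not overlap for 47 members (7.66% of all genes). The 3 DNMT3L libraries all lay below the 3 control libraries for 59 members and above them for 0, against 14.1% and 14.0% of all genes tested.

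The same libraries stood at the ends of the range in nearly every member. Control 1 was the highest library for 85 of 86 members, the exception being RpS19b, and for 38.7% of all genes tested. DNMT3L 1 was the lowest for 83, the exceptions being RpL22-like, RpS19b and RpS5b, which are low copies, and for 34.0% of all genes tested. The median log2 deviation of the members from their own 6-library mean was 0.83, −0.05 and 0.16 in controls 1 to 3 and −0.53, −0.13 and −0.23 in DNMT3L 1 to 3. Controls 2 and 3 thus lay much closer to DNMT3L 2 and 3 than control 1 did. For 24 of the 27 members whose groups overlapped, control 2 was the only control library inside the DNMT3L range. Without control 1 the median log2 fold change was −0.36 and all 86 values remained negative, against 49.7% of all genes. Then 61 members had groups that did not overlap (16.7% of all genes) and 29 had an unadjusted edgeR p under 0.05 (5.76% of all genes). Without DNMT3L 1 all 86 values were negative (53.4% of all genes) and 9 had an unadjusted edgeR p under 0.05 (4.14% of all genes). Without both libraries numbered 1 the median was −0.25, with 82 of 86 negative (50.0% of all genes) and 59 with groups that did not overlap (21.9% of all genes lower and 22.3% higher, the members all lower). There 37 had an unadjusted edgeR p under 0.05 (6.89% of all genes) and 0 passed the adjusted edgeR test (0.167% of all genes). The positive members there were RpL10Ab, RpL29, RpL39 and RpLP0-like, at 0.01 to 0.15.

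**Figure D2:**
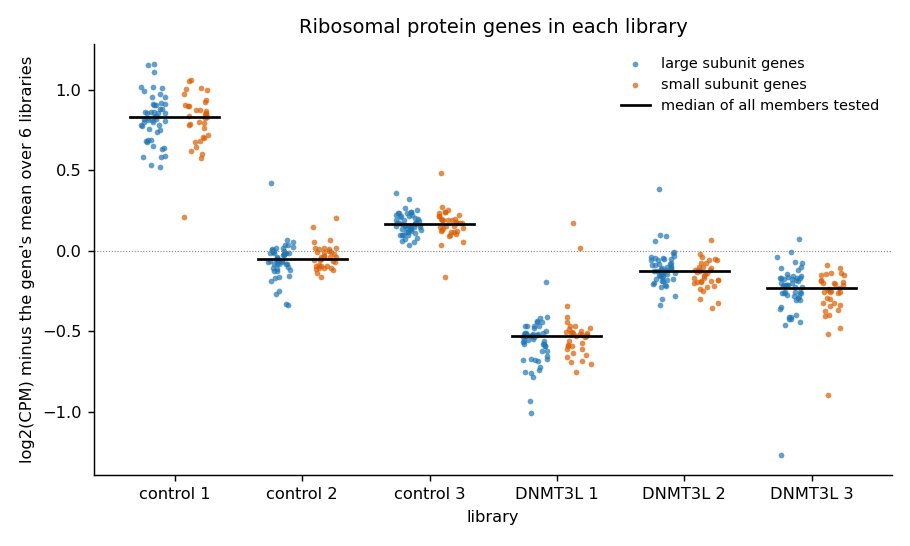
Log2 CPM of each of the 86 genes minus that gene's mean over the 6 libraries (y axis, log2 units) in each library (x axis), large subunit genes on the left and small subunit genes on the right of each column, with the median of all as a bar. The medians are 0.83, −0.05 and 0.16 in controls and −0.53, −0.13 and −0.23 in DNMT3L, and the subunits lie at the same height in every library.

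Both subunits had similar values. The 51 large subunit genes tested had a median log2 fold change of −0.66 and the 35 small subunit genes −0.68. The ratio of small to large subunit counts was 0.672, 0.677 and 0.670 in controls and 0.683, 0.665 and 0.663 in DNMT3L, which overlap. The means were 0.673 ± 0.00342 (SD) and 0.670 ± 0.0114, and the exact two-sided permutation test gave p = 0.7, where 0.1 is the smallest possible. The sign of this small difference turned when the paralog pairs were left out, with means of 0.639 in controls and 0.642 in DNMT3L. The medians of the chromosome arms were close too, from −0.68 on 2L to −0.62 on 3R. Counts of members whose groups did not overlap were less even. They were 17 of 17 on 2L and 8 of 20 on 2R, against 240 of 1665 and 302 of 1913 genes tested there, all lower. On X and 3L they were 10 of 14 each, and on 3R 14 of 20. RpS3A, the member on the small chromosome 4, was at −0.48. The 89 genes tested on chromosome 4 had a median of 0.51. Their median exonic size was 3971 bases, against 2170 over all genes tested, and the part of gene length in their value was not tested.

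In the large subunit the values are given in CPM, reads scaled by library size and by TMM, which corrects for library composition. The 4 members of the stalk that recruits elongation factors, RpLP0, RpLP1, RpLP2 and RpL12 at its base, had log2 fold changes from −0.93 to −0.64, and for all 4 the groups did not overlap, as for 68.6% of the whole family and 14.1% of all genes. RpLP2 had 7791, 3466 and 3999 CPM in the 3 controls against 1739, 3398 and 2880 CPM in the 3 DNMT3L libraries, and its fitted log2 difference was −0.93 ± 0.39 (SE; edgeR adjusted p = 0.332). Control 2 and DNMT3L 2 nearly touched there, and the value without control 1 was −0.48. Of the pair that carries the 5S RNA, RpL11 had 4289, 1886 and 2201 CPM in the 3 controls against 1133, 1711 and 1443 CPM in the 3 DNMT3L libraries (−0.97 ± 0.35; edgeR adjusted p = 0.332), and RpL5 had −0.59. The groups of RpL11 did not overlap, control 1 was its highest value by far, and its log2 fold change without control 1 was −0.52.

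RpL8, a protein that reaches toward the peptidyl transferase centre, had 7377, 3801 and 4261 CPM in the 3 controls against 2499, 2970 and 2696 CPM in the 3 DNMT3L libraries. Its log2 fold change was −0.92 ± 0.28 (edgeR adjusted p = 0.331) and −0.57 without control 1. Its DNMT3L libraries lay close together and clearly below all controls. RpL24, which helps bridge the subunits, was at 4959, 2277 and 2709 CPM against 1549, 1819 and 1712 CPM (−0.97 ± 0.31; edgeR adjusted p = 0.332), and −0.56 without control 1. Exons of RpL24 overlap CG7099 on the opposite strand, and how strand was treated in counting is not stated, so reads of the 2 genes may not be told apart.

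Proteins along the path of the nascent chain covered much of the family's range. RpL4, RpL17 and RpL39, which line the exit tunnel, had log2 fold changes of −0.55, −0.77 and −0.38. Of the 5 at the rim of the exit, RpL31 and RpL35 were among the members with the lowest p. RpL35 had 3118, 2023 and 2547 CPM in the 3 controls against 1427, 1729 and 1561 CPM in the 3 DNMT3L libraries (−0.70 ± 0.20; edgeR adjusted p = 0.326), and the lowest p of the large subunit. All its DNMT3L libraries were below all its controls. RpL31 had −0.82 ± 0.25 (edgeR adjusted p = 0.331), while RpL23A at the same rim had −0.44 and overlapping groups.

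At the other end, RpL39 had 776, 383 and 546 CPM in the 3 controls against 343, 453 and 510 CPM in the 3 DNMT3L libraries, and its fitted log2 difference was −0.38 ± 0.29 (edgeR adjusted p = 0.428). Its DNMT3L 2 and 3 libraries lay above control 2, its value without control 1 was −0.09, and its exons overlap RpL12 on the opposite strand. RpL35A was at 2966, 1712 and 1993 CPM against 1438, 1842 and 1818 CPM (−0.39 ± 0.24; edgeR adjusted p = 0.374), also with overlap. The members outside the paralog pairs with the fewest reads were RpL39, RpL29 and RpL38, and RpL38 was at 1637, 818 and 1148 CPM against 482, 982 and 823 CPM. RpL4 and RpL3 were among those with the most reads. RpL4 was at 7570, 4727 and 5029 CPM against 3245, 4449 and 4174 CPM, so that its groups did not overlap but control 2 was close to DNMT3L 2. RpL3, at the heart of the large subunit, had −0.44 ± 0.22 (edgeR adjusted p = 0.334).

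In the small subunit, proteins at the mRNA entry (RpS2, RpS3, RpS9 and RpS30) had log2 fold changes from −0.78 to −0.63, and those around the mRNA exit (RpS5a, RpS14a, RpS26 and RpS28b) from −1.01 to −0.57. The groups did not overlap for 3 of the first 4 and for all 4 of the second, near the 68.6% of the whole family. RpS6, the substrate of S6 kinase, had −0.59, and RpS12, which marks Minute cells for cell competition, −0.78. RpL40 and RpS27A, made as fusions with ubiquitin, had −0.70 and −0.60. RpS27 had the highest value of the small subunit outside the pairs, −0.43 ± 0.26 (edgeR adjusted p = 0.360), with overlap.

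**Figure D3:**
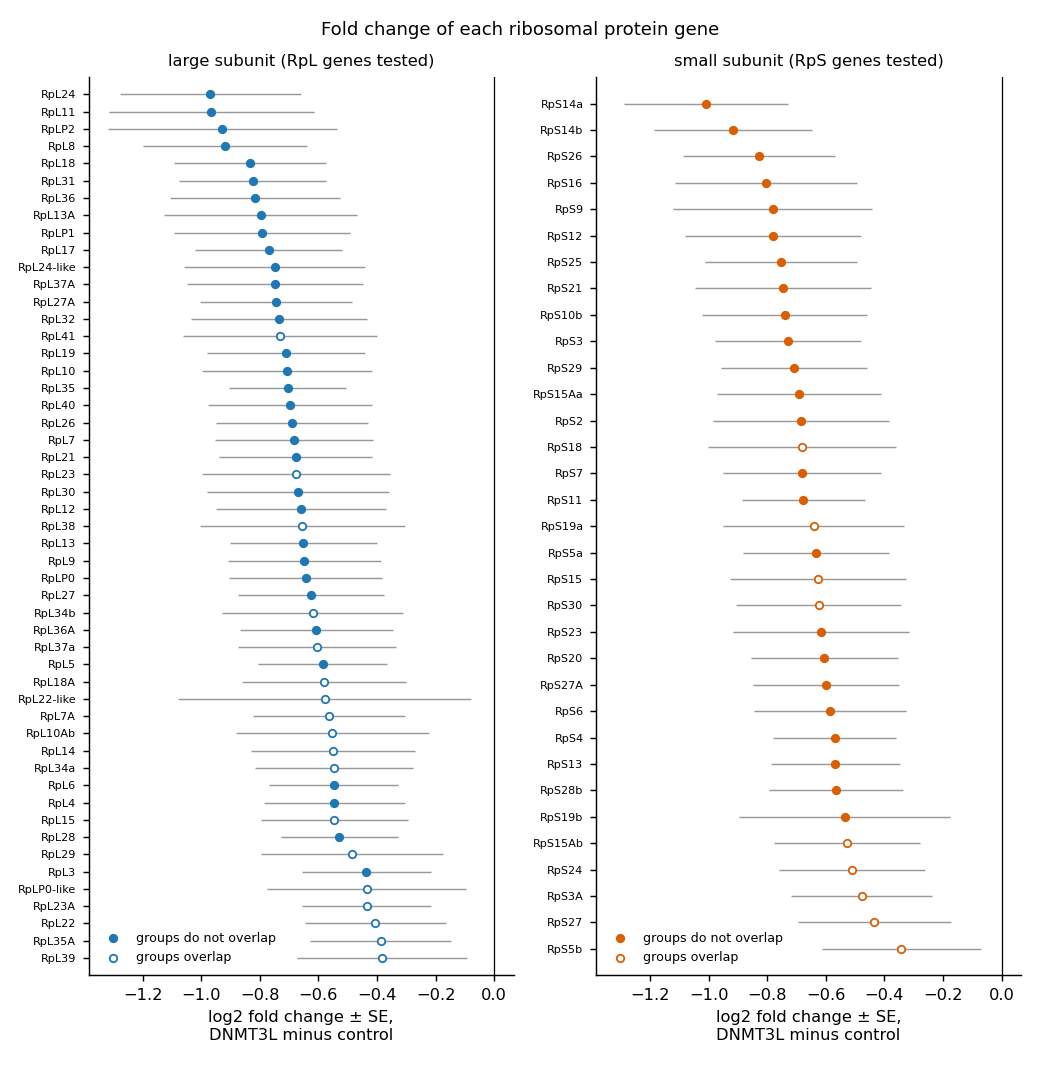
Log2 fold change (DNMT3L minus control, x axis) with its standard error for 51 RpL and 33 of the 35 RpS genes tested, ordered by value, with filled points where the 3 DNMT3L libraries all lie below the 3 controls. All 84 points drawn are negative, from −1.01 for RpS14a to −0.34 for RpS5b, and 57 are filled.

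Because all members had values of the same sign, each member was also compared with the family itself, by scaling the libraries to the RpL and RpS genes alone. This scaling was chosen after the data were seen. All 86 members then lay within 0.5 log2 units of no difference, and 0 passed the adjusted edgeR test, where it called 0.0105% of all genes. At an unadjusted edgeR p under 0.05, 3 were lower (1.19% of all genes) and 1 higher (15.8% of all genes, since most genes shift upward against the family). The 3 lower ones were RpS14a, RpL8 and RpL24, and the higher one was RpL35A. Per 10000 reads of the family, RpS14a had 122, 120 and 110 in controls and 96.0, 97.4 and 86.8 in DNMT3L, without overlap, and a log2 difference of −0.34 ± 0.09 (edgeR adjusted p = 0.24). RpL8 had 199, 188 and 182 against 177, 156 and 153 (−0.24 ± 0.09; edgeR adjusted p = 0.24). RpL24 had 134, 112 and 116 against 110, 95.5 and 97.2 (−0.27 ± 0.11; edgeR adjusted p = 0.24). All 3 were without overlap, and control 1 was still the highest library for each. RpL35A had 79.8, 84.6 and 85.1 in controls and 102, 96.7 and 103 in DNMT3L (0.26 ± 0.09; edgeR adjusted p = 0.24). RpL22, whose fly protein has a long histone H1-like extension, had 83.2, 96.3 and 94.1 against 102, 115 and 104, and RpL14 had 146, 142 and 141 against 154, 155 and 158. Per 10000 reads of the family, a plain share without TMM, the groups did not overlap for 11 members that were lower and 12 that were higher in DNMT3L. The shares of all genes tested were 2.01% and 45.3%. With TMM on the family, as in the edgeR fit, 12 were lower and 9 higher (2.13% and 43.3% of all genes). RpL35A, RpL22 and RpL14 were 3 of the 12 that were higher per 10000 reads, while in CPM their log2 fold changes were −0.39, −0.41 and −0.55.

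The symbols gave 13 paralog groups with 27 members, and in most of them 1 copy supplied nearly all reads. In 7 pairs both copies had a mean of at least 10 reads per library, so that the share of the less abundant copy could be compared. Such a share does not depend on the level of the family. RpS14a and RpS14b are neighbours on X, at 7933742 to 7934677 and 7934898 to 7935792 in the coordinates of the deposited table, and each encodes 151 residues. Reads of such similar copies can be split uncertainly, so their separate levels are uncertain. RpS14b had 797, 402 and 480 CPM in the 3 controls against 280, 324 and 285 CPM in the 3 DNMT3L libraries, and its fitted log2 difference was −0.92 ± 0.27 (edgeR adjusted p = 0.329), close to the −1.01 ± 0.28 (edgeR adjusted p = 0.323) of RpS14a. RpS14a itself had 4528, 2423 and 2587 CPM in the 3 controls against 1358, 1857 and 1528 CPM in the 3 DNMT3L libraries, 2.01-fold lower. The share of RpS14b in the pair was 15.0%, 14.2% and 15.6% in controls and 17.1%, 14.9% and 15.7% in DNMT3L. Both copies thus had the lowest log2 fold changes of the small subunit, and their proportion overlapped between the groups.

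In the other pairs with many reads the proportions were close between the groups. RpL34a made up 15.3% ± 0.951 (SD) of its pair with RpL34b in controls and 15.9% ± 0.786 in DNMT3L. RpS15Ab made up 4.41%, 4.84% and 4.86% of its pair with RpS15Aa in controls and 5.05%, 5.16% and 5.30% in DNMT3L. This was the only pair of the 7 whose groups did not overlap, with a mean log2 ratio 0.14 higher in DNMT3L (exact two-sided permutation p = 0.1, adjusted p = 0.467 over 7 pairs). Each of its copies encodes 130 residues, so reads of this pair may also be split uncertainly. No pair could pass the threshold in this design, where 0.1 is the smallest p, and the adjusted p was 0.467 for 6 pairs and 1.0 for RpS19b, each by the exact permutation test. RpL24-like, whose yeast counterpart is an assembly factor, had 9.20% ± 0.282 of its pair with RpL24 in controls and 10.4% ± 1.11 in DNMT3L. RpLP0-like, whose yeast counterpart likewise acts in assembly, had 2.20% ± 0.282 and 2.58% ± 0.237 of its pair with RpLP0. The log2 fold change of RpL24-like was −0.75, and −0.38 without control 1. That of RpLP0-like was −0.44 with overlapping groups, and −0.02 without control 1.

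Copies used mainly in the germline were low in these brains. RpS5b had 28.6, 17.1 and 16.0 CPM in the 3 controls against 18.1, 14.0 and 16.6 CPM in the 3 DNMT3L libraries, and made up 0.504% ± 0.0405 and 0.624% ± 0.133 of its pair with RpS5a. RpS19b was at 2.07, 2.06 and 2.50 CPM against 2.02, 1.59 and 0.961 CPM, and made up 0.0552% ± 0.0190 and 0.0590% ± 0.0336 of its pair with RpS19a. RpL22-like, with 57 reads over all libraries, was at 0.730, 0.651 and 0.512 CPM against 0.426, 0.635 and 0.202 CPM. These are levels of few reads, the groups overlapped for RpS5b and RpL22-like. The share of RpL22-like was not tested, and with 3 against 3 the exact permutation test could not pass the threshold for RpS5b or RpS19b. RpL10Ab, RpL37a, RpL7, RpS10b and RpS28b took all or nearly all reads of their groups, with log2 fold changes of −0.55, −0.60, −0.68, −0.74 and −0.57.

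**Figure D4:**
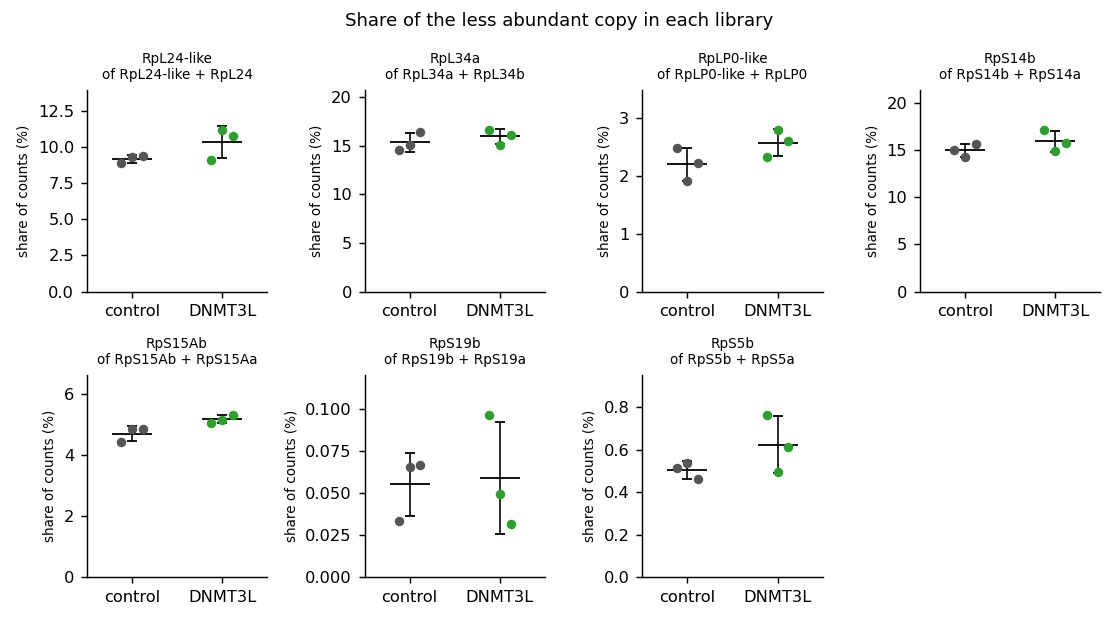
Share of counts (y axis, percent, from 0) of the less abundant copy in each of the 7 pairs compared, for 3 control and 3 DNMT3L libraries (points), with the mean and SD as bars. The groups overlap in every pair except RpS15Ab with RpS15Aa, where controls lie between 4.41% and 4.86% and DNMT3L libraries between 5.05% and 5.30%.

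The libraries also differed by gene length, which bears on a family of short genes. Across all 9495 genes tested, the Spearman correlation of log2 fold change with exonic size was 0.58, so that short genes tended to be lower in DNMT3L. Within the 86 members it was 0.07. Across all genes, each library's deviation correlated with exonic size at −0.69, 0.49 and −0.35 in controls 1 to 3 and at 0.66, 0.20 and 0.25 in DNMT3L 1 to 3. Control 1, with the highest ribosomal protein share, and DNMT3L 1, with the lowest, also had the most negative and the most positive of these correlations. These values are across genes that share libraries and are a description. When each library's trend on exonic size was removed, the median log2 fold change of the members was −0.30, 83 of 86 were negative (51.4% of all genes), and 60 had groups that did not overlap, all lower (15.6% of all genes lower, 16.4% higher). Then 33 members had an unadjusted limma p under 0.05 and were lower (11.3% of all genes), while 0 passed the adjusted limma test (0.284% of all genes). The 3 positive members, RpL35A, RpL39 and RpS5b, were at 0.01 to 0.05. The lowest members were then RpL5 at −0.86, farther from 0 than its −0.59 before, and RpS26 at −0.64. Their exonic sizes of 3835 and 1864 bases sum all annotated exons, for proteins of 299 and 114 residues. The trend removed may therefore not be that of their mRNA lengths, and their rank here is uncertain. RpL24 had −0.61, RpS14a −0.60, RpL8 −0.56 and RpL11 −0.56. With the trend removed the members' median deviation was 0.34, 0.09 and 0.03 in controls and −0.13, −0.12 and −0.17 in DNMT3L. The groups were apart in these medians as well, though control 3 and DNMT3L 2 differed by little.

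**Figure D5:**
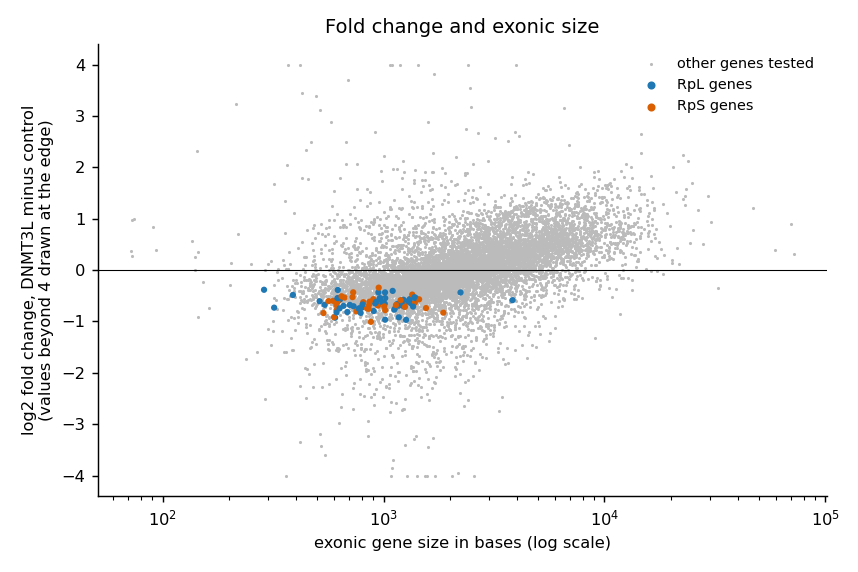
Log2 fold change (DNMT3L minus control, y axis, values beyond 4 drawn at the edge) against exonic gene size in bases (x axis, log scale) for the 9495 genes tested, with RpL and RpS genes in colour. Fold changes increase with size over all genes, with a Spearman correlation of 0.58, and the ribosomal protein genes form a flat band between −1.01 and −0.34 among the short genes.

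Ribosomal proteins outside the symbol rule and factors of rRNA processing were mostly lower as well, though few stood apart by library. Of 20 such genes listed, 17 had negative log2 fold changes, 0 passed the adjusted edgeR test, and the median was −0.40. At an unadjusted edgeR p under 0.05, 1 was lower, which as a share is under the 8.79% of all genes. The groups did not overlap for 4 that were lower and 2 that were higher, against 14.1% and 14.0% of all genes tested. The gene sta, which encodes the small subunit protein SA, had 10027, 5546 and 5759 CPM in the 3 controls against 3685, 4804 and 4668 CPM in the 3 DNMT3L libraries (−0.70 ± 0.28; edgeR adjusted p = 0.332). Rack1, a protein on the head of the small subunit, was at 5027, 3197 and 3312 CPM against 2334, 2877 and 2855 CPM (−0.52 ± 0.23; edgeR adjusted p = 0.332). In both the groups did not overlap, with control 1 highest and DNMT3L 1 lowest, as in the members. The nucleolar genes Nopp140, CG12301 and Nop17l had positive values of 0.16, 0.16 and 0.20, with exonic sizes of 3232, 2515 and 3991 bases, and were named after their values were seen. For 17 genes listed as regulators of ribosomal protein genes, among them Myc, Tor and larp, the median was 0.29, 11 were positive and 0 passed the adjusted edgeR test. Their median exonic size was 4826 bases, far above that of the members. The most abundant were Xrp1, a factor induced by loss of ribosomal proteins, at 298 ± 27.6 CPM in the 3 controls and 258 ± 48.0 CPM in DNMT3L, and Dref, a promoter factor, at 169 ± 5.43 and 182 ± 2.53 CPM. At an unadjusted edgeR p under 0.05, 2 of the 17 were lower and 0 higher, against 8.79% and 6.23% of all genes. They were Tbp (−0.43) and Irbp18, the partner of Xrp1 (−0.67), named after their values were seen.

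Summed levels of cell type markers, none of which passed the adjusted edgeR test, also differed between the groups. All 8 neuronal markers had positive log2 fold changes, with a summed level of 239 to 786 CPM (without TMM) in controls and 1023 to 1600 CPM in DNMT3L. The 6 neuroblast markers were positive as well, at 220 to 491 CPM against 525 to 615 CPM, so neither range overlapped. Control 1 was the lowest library and DNMT3L 1 the highest in both lists, opposite to the ribosomal proteins. The median exonic size was 5123 bases for the neuronal and 2876 for the neuroblast markers, against 2170 over all genes tested. Longer genes tended to be higher in DNMT3L, as described above. For 6 muscle markers, 5 of them negative, the summed level was 362 to 631 CPM in the 3 controls and 87.4 to 314 CPM in DNMT3L. The muscle exception, bt, had a log2 fold change of 0.51 and an exonic size of 28019 bases, and is named after its values were seen. For 5 fat body markers, 4 of them negative, the summed level was 960 to 1551 CPM against 469 to 686 CPM. The fat body exception, Fbp2, went the other way, with 1.09, 1.36 and 0.342 CPM in controls against 17.1, 19.7 and 24.5 CPM (4.45 ± 0.49; edgeR adjusted p = 0.0794), and is named after its values were seen. Glial markers overlapped at 968 to 1428 CPM against 915 to 1458 CPM, salivary gland markers at 12.9 to 47.4 CPM against 25.6 to 206 CPM, and germline markers at 7.58 to 13.0 CPM against 13.7 to 20.4 CPM did not overlap but were low. No marker of any list was at 0 in all libraries. The median exonic size was 2571.5 bases for the muscle and 2501 for the fat body markers, which were mostly lower. It was 636 bases for the salivary gland markers, all 5 of them positive. The part of gene length in the marker levels was not tested. The part of cell makeup in the lower ribosomal protein levels was not tested either. Exons of 25 members overlap another gene on the opposite strand. Exons of 6 overlap another gene on the same strand, namely RpL22, RpL23A, RpS6, RpS27A and the untested RpL7-like and RpS28-like. Reads of such overlaps may not be told apart.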

How the data were processed

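The submitters' processing notes list HISAT2 2.0.1, cutadapt 1.9.1, DESeq2, HTSeq 0.6.1 and bcl2fastq 2.17.1.14, and name builds BDGP6 and dm6. Their settings, strand included, are not stated. The authors' deposited table holds whole-number read counts and FPKM per gene. Total counts ran from 17928420 to 19251845, so a floor of 3 counts was 0.156 to 0.167 CPM. Counts were fitted with edgeR 4.0.16 (filterByExpr, TMM, glmQLFit, glmQLFTest, two-sided) on 9495 genes in R 4.3.3, with Benjamini-Hochberg adjustment over all of them and a threshold of 0.05. Standard errors are those implied by the F statistic. The fits were tested on simulated data. Alternatives used DESeq2 1.42.0 and limma 3.58.1, the latter on log2(FPKM + 1), log2(FPKM + 0.1), or log2 CPM without each library's loess trend on exonic size (span 0.5). Exact permutation tests used Python 3.11.15. Protein lengths, snoRNA positions and exon overlaps come from Ensembl release 115, where 91 of 92 members were found and 90 had the coordinates of the table. Genes named were every paralog, the members with extreme CPM, fold change or p, the untested members, sta and Rack1, and for lists the most abundant; genes that stand for a part of the ribosome are extra examples. Members and lists were chosen with earlier results of these data known. Values of 2 members are in the counts and medians but are not reported here by gene.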

Additional observations from a re-analysis of the deposited data

How the results depend on the processing

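The count of 0 members past the adjusted threshold was 0 under every alternative run. With 1 library left out, the 46 members at an unadjusted edgeR p under 0.05 became between 8 (without DNMT3L 3) and 75 (without control 2). They were 29 without control 1 (5.76% of all genes lower) and 9 without DNMT3L 1 (4.14%). For the other libraries left out, the share of all genes was not computed, so those counts are not set against it. Scaled to the family they were 4, of which 3 were lower (1.19% of all genes) and 1 higher (15.8%). Every library moved the count of 46 by over 1.5 times when left out. The median log2 fold change was −0.84 to −0.36 with 1 library left out, control 1 giving the value nearest 0. It was −0.47 with total count scaling and −0.46 with limma on log2(FPKM + 1), where the median of all genes shifted to 0.14 and 0.12. It was −0.30 without the length trend, −0.25 without both libraries numbered 1 and −0.01 when scaled to the family, and the groups did not overlap, all lower, for 59 to 83 members with 1 library left out (16.6% to 28.4% of all genes). Scaled to the family with TMM, the groups did not overlap for 21, of which 12 were lower (2.13% of all genes) and 9 higher (43.3%). The difference in RNA share was −9.17 to −3.56 percentage points with 1 library left out. The log2 ratio of small to large subunit counts reversed to 0.00645 without paralog pairs and to 0.00147 without DNMT3L 3, from −0.00655, with a range of −0.0206 to 0.00147 over the libraries left out. The log2 ratio of RpS19b to RpS19a reversed to −0.32 without control 1 and to −0.422 without DNMT3L 1, and was 0.388 without DNMT3L 3.

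Scaled to the family, which centres it near 0, 41 of 86 members were positive; among the genes named by rule these were RpLP0 (0.01), RpS5a (0.03), RpS19a (0.02), RpL22 (0.22), RpS28b (0.09), RpL37a (0.06), RpLP0-like (0.24), RpS15Ab (0.11), RpL22-like (0.02), RpL10Ab (0.11), RpL34b (0.04), RpS5b (0.35), RpS19b (0.07), RpL34a (0.10), RpL3 (0.18), RpL4 (0.09), RpL39 (0.27), RpL29 (0.18), RpL23A (0.18), RpS27 (0.18) and RpL35A (0.26). Values reversed without the length trend for RpS5b (0.05), RpL39 (0.01) and RpL35A (0.04), and without both libraries numbered 1 for RpLP0-like (0.15), RpL10Ab (0.01), RpL39 (0.05) and RpL29 (0.03); the cause was not tested. The family scaling and the exclusion of both libraries numbered 1 were chosen after seeing the data.

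The titles number replicates 1 to 3 in both groups. Deviations of same-numbered libraries correlated at −0.66, −0.54 and −0.18, and those of differently numbered libraries at −0.34 to 0.69. No label says that the numbers mark shared batches. With 1 value per pair of libraries, these correlations cannot decide it. With the replicate block the members' median was −0.63, with 0 called and 2 at an unadjusted edgeR p under 0.05. The share of all genes at that unadjusted threshold was not computed for the block.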
